A study of Mus musculus with 6 samples.

Results

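The endothelin, angiotensin and natriuretic peptide systems were followed through 10 genes, *Edn1*, *Ece1*, *Ednra*, *Ednrb*, *Agt*, *Ace*, *Agtr1a*, *Npr1*, *Npr2* and *Npr3*, taken by symbol from the 25140 genes of the deposited RNA-seq table. All 10 were found and all 10 had enough reads to be tested. They were chosen with earlier results of these data known, so the counts here describe them and are no independent test. With TGFβ, 9 of them fell, where 20.1% of the 14334 genes tested fell. The other one, *Ednra*, was lower on average without passing the test. Of the 9, *Npr1* passed narrowly, and its groups overlapped. *Agtr1a*, the angiotensin II receptor, fell most, to 16.6% of its vehicle level, followed by *Agt*, the angiotensin precursor, at 35.5%.

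The cells were labelled primary cardiac fibroblasts of C57BL/6 mice, isolated from adult hearts and used at passage 1, and no genetic modification is given. They were grown in DMEM with 25 mM glucose, then kept in 1% FBS for 16 h by the sample labels (the methods of the study give a longer time) and treated for 24 h with vehicle or with TGFβ at 10 ng/ml, the cytokine best known for driving fibroblasts toward the myofibroblast state, in which they contract and lay down matrix. The text of the study calls the sequenced cells mouse embryonic fibroblasts in its results and cardiac fibroblasts in its methods. Each group had 3 libraries, described as biological replicates, of polyadenylated RNA read from a stranded kit; nothing says whether they came from separate animals, so p-values measure the spread between these libraries. Libraries are named by their total count, since the deposited columns carry no replicate number. Values given in series of 3 follow the order 31072338, 29296570 and 29331999 counts for vehicle and 27851677, 28894151 and 28641986 counts for TGFβ.

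All 3 systems act on vessels and on the stroma of the heart. Endothelin-1 and angiotensin II are made by proteolysis of larger precursors and signal mainly through receptors coupled to Gq proteins, which raise cytosolic calcium, and both are known agonists of cardiac fibroblasts. Natriuretic peptides signal in the opposite sense in many of these cells, through receptors that are themselves guanylyl cyclases and make cGMP, and a further receptor without cyclase activity removes the peptides.

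The genes lie on 7 chromosomes of the mouse build GRCm38 (mm10), and all are protein coding in the GENCODE M21 annotation. *Edn1* spans chr13:42301476-42307990 on the plus strand, and *Agtr1a* chr13:30336441-30382867 on the same strand. *Ece1* spans chr4:137862237-137965229 and *Npr2* chr4:43631935-43651244, both on the plus strand. *Ednra* (chr8:77663031-77724464) and *Agt* (chr8:124556534-124569706) share a chromosome and the minus strand. *Ednrb* lies at chr14:103814625-103844402, *Npr1* at chr3:90450591-90465866 and *Npr3* at chr15:11839896-11907287, all on the minus strand, and *Ace* at chr11:105967945-105989964 on the plus strand. No window of 75 bases in the longest transcript of any of the 10 genes occurs in a transcript of another gene, and genes that overlap them in position held at most 0.958% as many counts as the member.

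RefSeq gives a promoter window for 9 of the 10 genes (13 windows of 300 bases, with 250 bases before the transcript start and 50 after it, build GRCm38.p6). *Agtr1a* had no window and was not searched. The windows were searched for 4 short motifs, and 3 of them are shown. These hold the pairs of SMAD boxes nearest to a start, in *Edn1* and *Ednrb*, and the only TATA box found, in *Agt*. Capitals mark the SMAD box, the short motif bound by the transcription factors of TGFβ signaling (CAGAC, or GTCTG on the other strand), in *Edn1* (chr13:42301226-42301525, plus strand) and *Ednrb* (chr14:103843652-103843951, minus strand), and the TATA box (TATAAA, plus strand of the gene only) in *Agt* (chr8:124569657-124569956, minus strand), all written 5′ to 3′ in the direction of the gene.
Edn1: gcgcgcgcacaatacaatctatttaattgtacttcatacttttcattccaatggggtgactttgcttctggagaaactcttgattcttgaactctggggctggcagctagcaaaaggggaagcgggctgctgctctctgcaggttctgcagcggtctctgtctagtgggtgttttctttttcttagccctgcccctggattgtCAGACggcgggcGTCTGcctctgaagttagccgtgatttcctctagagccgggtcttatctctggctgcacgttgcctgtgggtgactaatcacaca
Ednrb: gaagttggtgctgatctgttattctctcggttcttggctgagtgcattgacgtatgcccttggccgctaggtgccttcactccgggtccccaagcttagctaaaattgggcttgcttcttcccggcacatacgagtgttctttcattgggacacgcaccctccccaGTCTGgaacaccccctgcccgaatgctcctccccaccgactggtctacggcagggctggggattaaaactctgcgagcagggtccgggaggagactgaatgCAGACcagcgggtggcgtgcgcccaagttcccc
Agt: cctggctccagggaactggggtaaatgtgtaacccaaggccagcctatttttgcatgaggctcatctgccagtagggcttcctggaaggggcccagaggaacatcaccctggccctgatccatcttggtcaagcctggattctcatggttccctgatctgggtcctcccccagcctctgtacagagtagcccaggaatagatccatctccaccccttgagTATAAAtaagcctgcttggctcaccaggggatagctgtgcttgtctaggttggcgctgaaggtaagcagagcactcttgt
The boxes of *Edn1* begin 47 and 35 bases upstream of the start, on opposite strands. *Ednrb* has one box 84 bases upstream and another just inside the transcript, and *Ednra* has a pair 172 and 167 bases upstream. *Ece1* holds a single box in 3 of its 4 windows, in one of them 1 base upstream of the start. The TATA box of *Agt* begins 30 bases upstream of its start. A SMAD box is present in 49.5% of the 32544 RefSeq promoter windows and a TATA box in 8.28%, so the first is common in windows of this length. The other motifs searched were the AP-1 site (TGANTCA on both strands, in 7.79% of windows) and the GC box (GGGCGG on both strands, in 35.9%). None of the member windows searched holds the AP-1 site in exactly these letters, and sites that differ from them were not searched for. The GC box was found 4 times in the first window of *Ace*, 2 times in that of *Npr1* and in 3 of the 4 windows of *Ece1*. Neither *Npr2* nor *Npr3* holds any of the 4 motifs. A match describes these letters only, and no binding was measured here.

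Expression is given in CPM, counts divided by the TMM-scaled library size on edgeR's usual scale, and the change as the log2 fold change from edgeR, negative where TGFβ was lower. Over the whole table, 40.7% of the 14334 genes tested passed an adjusted p of 0.05, and 20.1% passed it with lower expression. Among the members 9 of 10 passed it, all with lower expression. The median log2 fold change was -0.74 over the 10 genes and -0.0013 over all genes tested. Since the genes were chosen with earlier results of these data known, these contrasts are descriptive. In 8 of the 10 genes every TGFβ library lay below every vehicle library, against 26.1% of all genes tested. The exact permutation test of single genes cannot pass here, since its smallest two-sided p for 3 libraries against 3 is 0.1, which those 8 genes reached.

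**Figure D1:**
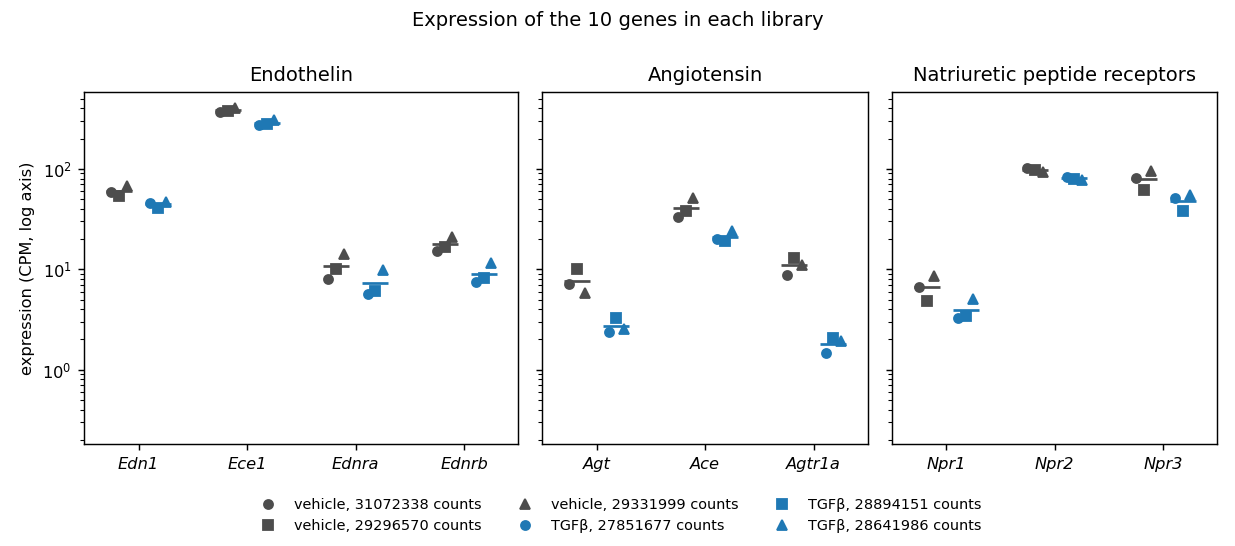
Expression of the 10 genes in each library, in CPM on a log axis, with vehicle in grey and TGFβ in blue; each symbol is one library and the lines are group means. The blue symbols of *Agtr1a* sit between 1.46 and 2.08 CPM, all far under the grey ones, while those of *Ednra* and *Npr1* overlap between groups.

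*Edn1* encodes the precursor of endothelin-1, the main endothelin of vessels and heart. Its counts were 1852, 1597 and 1993 with vehicle and 1253, 1133 and 1322 with TGFβ, or 58.2, 53.8 and 66.8 CPM against 45.8, 40.6 and 46.4 CPM. Every TGFβ library was under every vehicle library, with a gap of 7.47 CPM between the groups. The mean fell from 59.6 ± 6.60 CPM (SD, n = 3) to 44.2 ± 3.20 CPM (SD, n = 3). The log2 fold change was -0.43 (SE 0.09, edgeR adjusted p = 0.00586). The mRNA of the endothelin-1 precursor was thus lower in cultures exposed to TGFβ for this time. The precursor and the peptide were not measured. The other endothelin ligands were near or at the limit of counting. *Edn3* had 2 counts over the vehicle libraries and 0 over the TGFβ libraries, where a count of 0 allows up to 0.0351 CPM, and *Edn2* was not among the genes of the table.

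*Ece1* encodes the endothelin-converting enzyme, a membrane metalloprotease that releases the active peptide. It was the most abundant member, at 371, 373 and 404 CPM with vehicle and 272, 278 and 305 CPM with TGFβ. The groups were 65.9 CPM apart at their nearest libraries. Mean expression dropped from 383 ± 18.6 CPM (SD, n = 3) to 285 ± 17.7 CPM (SD, n = 3), a log2 fold change of -0.43 (SE 0.06, edgeR adjusted p = 0.00107). The relative fall was close to that of its substrate, with TGFβ levels at 74.5% of vehicle for *Ece1* and 74.2% for *Edn1*. *Ece2*, a related enzyme, moved the other way (log2 fold change 0.34, edgeR adjusted p = 0.00298). *Mme*, the neutral endopeptidase neprilysin that degrades endothelins and natriuretic peptides, fell (log2 fold change -0.54, edgeR adjusted p = 0.0119). Both were listed with *Edn2*, *Edn3* and *Kel* as the other genes of the endothelin system, of which only these 2 could be tested.

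The 2 endothelin receptors were expressed at lower levels. *Ednra*, the receptor best known for contraction and growth responses, stood at 8.01, 10.1 and 14.1 CPM with vehicle and 5.70, 6.12 and 9.93 CPM with TGFβ. The highest TGFβ library lay above the lowest vehicle library, so the groups overlapped. The means were 10.7 ± 3.10 CPM (SD, n = 3) and 7.25 ± 2.33 CPM (SD, n = 3), and the log2 fold change of -0.56 (SE 0.26) did not pass the test (edgeR adjusted p = 0.126, exact permutation p = 0.2). Of the 6 libraries, leaving out the TGFβ library of 28641986 counts alone brought *Ednra* past the threshold, with a log2 fold change of -0.87 (edgeR adjusted p = 0.0267).

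*Ednrb*, the second endothelin receptor, which in vessels also clears the peptide, held 15.1, 16.8 and 21.1 CPM with vehicle and 7.42, 8.27 and 11.5 CPM with TGFβ. Its groups did not overlap. On average *Ednrb* fell from 17.7 ± 3.09 CPM (SD, n = 3) to 9.08 ± 2.17 CPM (SD, n = 3), with a log2 fold change of -0.96 (SE 0.18, edgeR adjusted p = 0.00439). Within each library the log2 ratio of *Ednrb* to *Ednra* was 0.92, 0.74 and 0.58 with vehicle and 0.38, 0.43 and 0.22 with TGFβ. The 3 ratios with TGFβ were all lower than the 3 with vehicle, and the means differed by -0.40 (exact permutation test, two-sided, p = 0.1, the smallest possible). Per kilobase of transcript, *Ednrb* exceeded *Ednra* by 1.48-fold with vehicle and 1.12-fold with TGFβ.

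*Agt* encodes angiotensinogen, the secreted precursor from which the angiotensins are cut. Its counts were 228, 300 and 174 with vehicle and 65, 91 and 73 with TGFβ, or 7.16, 10.1 and 5.83 CPM against 2.38, 3.26 and 2.56 CPM. Even the lowest vehicle library exceeded the highest TGFβ library by 2.57 CPM. Average *Agt* expression fell from 7.70 ± 2.19 CPM (SD, n = 3) to 2.73 ± 0.466 CPM (SD, n = 3), 2.82-fold, with a log2 fold change of -1.49 (SE 0.23, edgeR adjusted p = 0.00155). The lowest library, with 65 counts, carries a counting error of 12.4%, which covers counting only and is small beside the change. *Ren1*, the gene of renin, the protease that makes the first cut of angiotensinogen, was not among the genes of the table.

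*Ace* encodes angiotensin-converting enzyme, which makes angiotensin II from angiotensin I. Its levels were 33.3, 38.0 and 50.8 CPM with vehicle and 19.9, 19.3 and 23.9 CPM with TGFβ. The groups were separated by 9.45 CPM. The mean fell from 40.7 ± 9.01 CPM (SD, n = 3) to 21.0 ± 2.51 CPM (SD, n = 3), a log2 fold change of -0.95 (SE 0.16, edgeR adjusted p = 0.00237).

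*Agtr1a* encodes the type 1a receptor, through which most known effects of angiotensin II are exerted in the mouse heart. Its counts were 277, 387 and 331 with vehicle and 40, 58 and 55 with TGFβ, or 8.70, 13.0 and 11.1 CPM against 1.46, 2.08 and 1.93 CPM. The highest TGFβ library was 6.63 CPM under the lowest vehicle library. Average *Agtr1a* expression fell from 10.9 ± 2.18 CPM (SD, n = 3) to 1.82 ± 0.321 CPM (SD, n = 3), a 6.01-fold difference and a log2 fold change of -2.58 (SE 0.19, edgeR adjusted p = 5.93e-05). A more negative log2 fold change was found in 0.286% of the genes tested. With each library left out in turn its log2 fold change stayed between -2.72 and -2.44.

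The other angiotensin receptors were near the limit of counting. *Agtr1b* had 4 counts with vehicle and 1 with TGFβ, and *Agtr2*, the type 2 receptor, had 4 and 0. *Mas1*, a receptor for angiotensin fragments, had 0 counts with vehicle, which allows up to 0.0334 CPM, and 1 with TGFβ. *Agt* and *Agtr1a* were also the only members to pass the test with a log2 fold change under -1, a limit that 4.36% of all genes tested passed.

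By the correlation of log2 CPM over the 6 libraries, the genes most like *Agtr1a* among 10372 others that averaged 5 CPM or more were *Cenpj* and *C1rl*, each with a Pearson r of 0.999, and *Ptgir*, the prostacyclin receptor, also at 0.999. Their log2 fold changes were -0.48, -0.72 and -2.17. The measure ignores the size of the change, and since the libraries fall into 2 groups it is high for any gene that separates the groups and keeps the same order of libraries inside them.

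**Figure D2:**
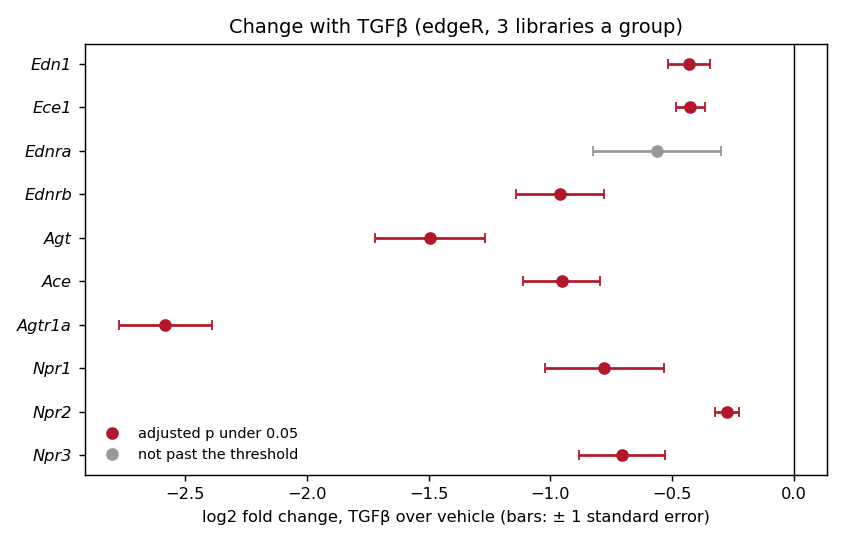
Change with TGFβ for the 10 genes, as the log2 fold change from edgeR (negative where TGFβ was lower), with bars of 1 standard error and 3 libraries a group; red points passed an adjusted p of 0.05 and the grey one, *Ednra*, did not. All 10 points are left of 0, from -0.27 for *Npr2* to -2.58 for *Agtr1a*.

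The 3 natriuretic peptide receptors all fell. *Npr1*, the guanylyl cyclase receptor for the peptides released by heart muscle, was the least abundant of the 3, with 6.63, 4.86 and 8.62 CPM with vehicle and 3.25, 3.40 and 5.05 CPM with TGFβ. The highest TGFβ library slightly exceeded the lowest vehicle library, so the groups overlapped. The mean went from 6.70 ± 1.88 CPM (SD, n = 3) to 3.90 ± 0.998 CPM (SD, n = 3), a log2 fold change of -0.78 (SE 0.24) that passed the test narrowly (edgeR adjusted p = 0.0361, exact permutation p = 0.2). *Npr1* no longer passed when one of 4 libraries was left out, namely the vehicle libraries of 31072338 counts (edgeR adjusted p = 0.0756) and 29331999 counts (0.102) and the TGFβ libraries of 27851677 counts (0.122) and 28894151 counts (0.113). In those fits its log2 fold change was -0.79, -0.56, -0.66 and -0.69 in the same order.

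*Npr2*, the guanylyl cyclase receptor for C-type natriuretic peptide, had the smallest change of the 10 genes. It stood at 102, 97.1 and 92.1 CPM with vehicle and 83.1, 80.2 and 77.9 CPM with TGFβ. Its replicates were tightly grouped and did not overlap, with SDs of 5.11% and 3.21% of the means. Its mean declined from 97.1 ± 4.96 CPM (SD, n = 3) to 80.4 ± 2.58 CPM (SD, n = 3), a log2 fold change of -0.27 (SE 0.05, edgeR adjusted p = 0.00356).

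*Npr3*, the clearance receptor, had 80.7, 61.5 and 94.3 CPM with vehicle and 51.7, 38.2 and 55.2 CPM with TGFβ. The groups were 6.25 CPM apart. The mean fell from 78.8 ± 16.5 CPM (SD, n = 3) to 48.4 ± 8.96 CPM (SD, n = 3), a log2 fold change of -0.70 (SE 0.18, edgeR adjusted p = 0.0151). The log2 ratio of *Npr3* to *Npr2* within libraries averaged -0.32 ± 0.35 (SD, n = 3) with vehicle and -0.75 ± 0.29 (SD, n = 3) with TGFβ. That of *Npr1* to *Npr2* averaged -3.89 ± 0.45 (SD, n = 3) and -4.39 ± 0.39 (SD, n = 3). Both ratios overlapped between the groups. The means differed by -0.43 and -0.50 (exact permutation test, two-sided, p = 0.2 for each), in a test that cannot pass with 3 libraries a group.

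The natriuretic peptides themselves were scarce. *Nppa*, the atrial peptide, had 52 counts over the vehicle libraries and 53 over the TGFβ libraries, with a log2 fold change of 0.15 (edgeR adjusted p = 0.871). *Nppb* had 1 and 7 counts, and *Nppc*, the C-type peptide that binds *Npr2*, had 15 and 11. The cultures thus held little mRNA of any of these ligands in either group.

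To compare the genes with each other, CPM was divided by the length of the longest annotated transcript. With vehicle the order of levels was *Ece1* (79.5 CPM per kilobase), *Edn1* (27.9), *Npr2* (26.5), *Npr3* (11.4), *Ace* (8.30), *Agtr1a* (4.98), *Ednrb* (4.31), *Agt* (4.07), *Ednra* (2.96) and *Npr1* (1.65). The library ranges of neighbors overlapped for *Edn1* and *Npr2*, for *Npr3* and *Ace*, and along the run from *Agtr1a* to *Ednra*, so those orders are within the spread. With TGFβ *Agtr1a* was last, at 0.829 CPM per kilobase, just under *Npr1* at 0.960, with overlapping ranges. *Ece1* was still first, at 59.2 CPM per kilobase. Levels per kilobase rest on the transcript chosen: with the median length of each gene's transcripts 12 of 20 levels moved by more than 1 SD, and *Agtr1a* then ranked 5 with vehicle and 7 with TGFβ.

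**Figure D3:**
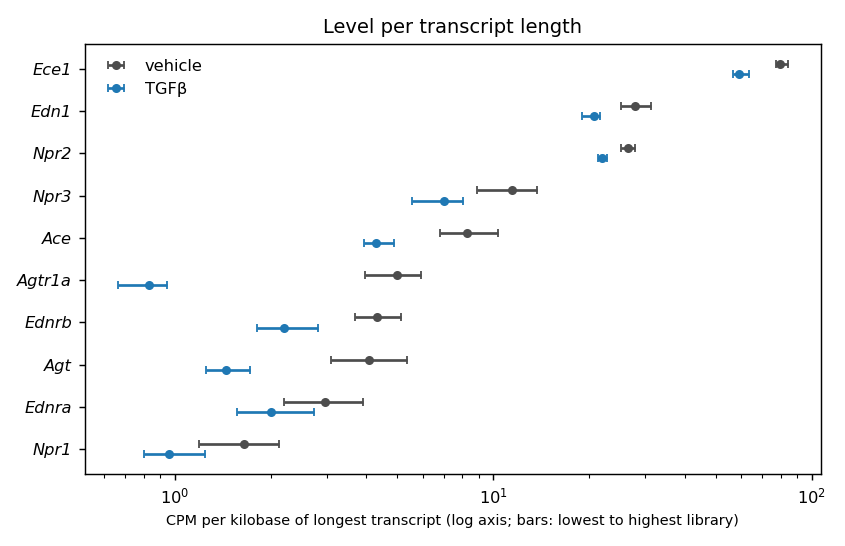
Level of each gene in CPM per kilobase of its longest transcript, on a log axis, for vehicle in grey and TGFβ in blue; points are means and bars run from the lowest to the highest of 3 libraries. *Agtr1a* moves from the middle of the order (4.98) to its low end (0.829).

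Libraries of the same group also differed from each other. Within the vehicle group 7 members (*Edn1*, *Ece1*, *Ednra*, *Ednrb*, *Ace*, *Npr1* and *Npr3*) were highest in the library of 29331999 counts, and within the TGFβ group the same 7 were highest in the library of 28641986 counts. These were also the libraries with the most RNA of endothelial markers, whose summed level (11 genes) was 519, 585 and 808 CPM with vehicle and 477, 524 and 666 CPM with TGFβ. Endothelial markers were not alone in this. Summed leukocyte markers (344 and 312 CPM) and smooth muscle and pericyte markers (504 and 399 CPM) also peaked there. So did Schwann cell and melanocyte markers (54.5 and 36.1 CPM) and fibroblast markers (61344 and 54219 CPM). Cardiomyocyte and mesothelial markers peaked in the libraries of 31072338 and 27851677 counts. *Edn1*, *Ece1*, *Ednrb* and *Ace* are known to be expressed in endothelial cells, which is background and not a result of these data. Over the vehicle libraries *Ece1* (371 to 404 CPM), *Ednrb*, *Ace* and also *Ednra* (8.01 to 14.1 CPM) had the same order as the summed endothelial markers. *Edn1*, *Npr1* and *Npr3* did not. In bulk RNA, fewer cells of a type and less RNA per cell cannot be told apart.

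None of the 11 endothelial markers was at 0, and *Cdh5* and *Pecam1* averaged 200.1 and 109 CPM with vehicle and 154 and 86.1 CPM with TGFβ. *Tek* (82.3 to 97.8 CPM), *Emcn* (41.1 to 41.3 CPM) and *Erg* (21.9 to 22.3 CPM) were higher on average with TGFβ, and the remaining markers lower. Counts of *Tek* were 2536, 2750 and 2224 with vehicle and 2593, 3211 and 2388 with TGFβ, fewest in the libraries where the marker sum was highest. By edgeR 0 of the 11 passed the threshold and 0 had an unadjusted p under 0.05. DESeq2 and limma-voom called 0 as well, with 1 at an unadjusted p under 0.05 by DESeq2. The median log2 fold change of the 11 was -0.26 by edgeR. With the TGFβ library of 28641986 counts left out, 6 of the 11 had an unadjusted p under 0.05 by edgeR and 1 passed with higher expression. That was also the library whose omission brought *Ednra* past the threshold. With the endothelial marker level of each library as a covariate, a fit that called 6497 of 14334 genes, 10 of 10 members passed the test with lower expression, *Ednra* at -0.33 (SE 0.09, edgeR adjusted p = 0.0150), *Edn1* at -0.38, *Ednrb* at -0.81, *Ace* at -0.80 and *Npr1* at -0.61. In that fit 1 of the 11 endothelial markers passed with higher and 2 with lower expression, but these markers themselves make up the covariate. Leaving out both libraries highest in these markers leaves 2 against 2, and that fit called 5358 of 14405 genes, 2687 of them lower. Again 10 of 10 members passed with lower expression, *Ednra* at -0.62 (edgeR adjusted p = 0.0152) and *Agtr1a* at -2.62. Of the 11 endothelial markers 4 then passed with lower expression. The libraries left out were those in which 7 members were highest, *Ednra* and *Npr1* among them. Leaving them out therefore narrows the spread of those members (SE of *Ednra* 0.14, against 0.26 with all libraries). With the covariate the SE of *Ednra* was likewise smaller (0.09). Both fits were chosen after the library pattern had been seen, so the count of 10 in either fit is no separate evidence of a fall. *Agt*, *Agtr1a* and *Npr2* did not follow the summed markers. *Agt* and *Agtr1a* were highest in the libraries of 29296570 and 28894151 counts. *Npr2* was highest in those of 31072338 and 27851677 counts and lowest in those of 29331999 and 28641986 counts.

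**Figure D4:**
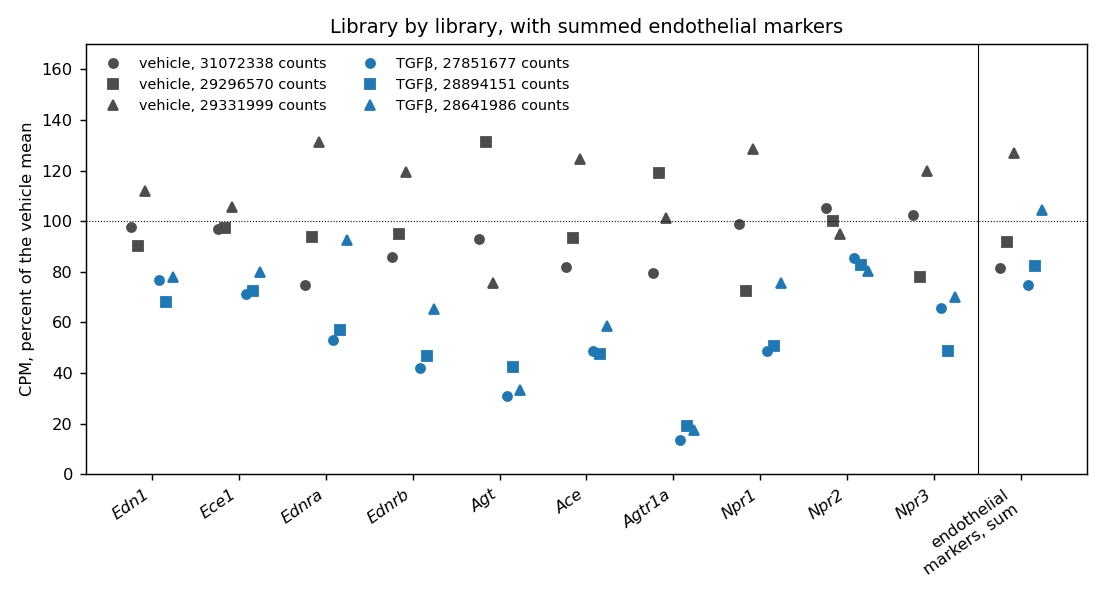
Level of each gene in each library as a percentage of its vehicle mean, with the summed level of 11 endothelial markers at the right; symbols are libraries, grey for vehicle and blue for TGFβ. For 7 genes the triangles (29331999 counts in vehicle, 28641986 in TGFβ) are the highest of their group, as they are for the summed markers. For *Agt* and *Agtr1a* the squares are the highest, and for *Npr2* the circles.

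The libraries were read against marker lists of cell types. These lists were not built to tell cardiac from embryonic fibroblasts, so they do not settle which of the 2 were sequenced. All 10 fibroblast markers were present, with a summed level of 51140 to 61344 CPM with vehicle and 48307 to 54219 CPM with TGFβ. By edgeR 7 of them fell and 0 rose, while DESeq2 and limma-voom each called 7 lower and 1 higher. *Col1a1* and *Pdgfrb* were higher in every TGFβ library than in every vehicle library. Their log2 fold changes were 0.23 and 0.10 (edgeR adjusted p = 0.0550 and 0.116). Of 9 smooth muscle and pericyte markers tested, 2 rose and 1 fell (430 to 504 CPM against 327 to 399 CPM). The one that fell, *Notch3*, went from 207 to 57.3 CPM, a larger drop than that of the mean sum (461 to 371 CPM). Those that rose were *Cspg4* (19.5 to 53.3 CPM) and *Smtn* (91.0 to 111 CPM). Leukocyte markers summed to 241 to 344 CPM and 209 to 312 CPM, with 0 of 6 called by edgeR, DESeq2 or limma-voom and 0 at an unadjusted p under 0.05. Cardiomyocyte markers summed to 38.5 to 59.3 CPM and 27.3 to 40.2 CPM, nearly all from *Tnnt2*, while *Myh6*, the main myosin of mouse heart muscle, had 23 and 8 counts; edgeR called 0 of 2 (1 at an unadjusted p under 0.05, and DESeq2 called 1). Mesothelial and epicardial markers summed to 24.2 to 85.1 CPM and 15.3 to 41.6 CPM, with 0 of 5 called by edgeR, DESeq2 or limma-voom and 1 at an unadjusted p under 0.05 by edgeR. Schwann cell and melanocyte markers, listed because *Ednrb* marks those lineages, summed to 34.6 to 54.5 CPM and 24.6 to 36.1 CPM, with 1 of 4, *Mitf*, lower. The part of any of these cell types in the members' change was not tested. The fits with endothelial markers do not measure the part of endothelial cells. In bulk RNA, the marker level does not separate fewer cells from less RNA per cell.

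Genes around the 10 in the same pathways were read from lists of their known components. Of 17 other renin-angiotensin genes 10 were tested, 4 rose and 2 fell, with a median log2 fold change of 0.12. *Enpep*, aminopeptidase A, which degrades angiotensin II, fell from 13.1 ± 1.15 CPM (SD, n = 3) to 3.51 ± 0.530 CPM (SD, n = 3), a log2 fold change of -1.90 (SE 0.13, edgeR adjusted p = 3.4e-05). *Agtrap*, whose product binds the type 1 receptor and promotes its internalization, fell by 0.45 on the log2 scale. The 4 that rose are the peptidases *Prep* (0.38), *Thop1* (0.24), *Prcp* (0.21) and *Ctsd* (0.15), named after their values were seen.

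Of 16 other natriuretic peptide and cGMP genes 11 were tested, 2 rose and 5 fell, with a median of -0.18. *Gucy1a1*, a subunit of the soluble guanylyl cyclase that answers to nitric oxide, fell from 301.5 ± 42.3 CPM (SD, n = 3) to 107.5 ± 11.5 CPM (SD, n = 3), a log2 fold change of -1.49 (SE 0.12, edgeR adjusted p = 6.85e-05). Its partner subunit *Gucy1b1* was at 0.14 (edgeR adjusted p = 0.273). *Pde3a*, a phosphodiesterase that hydrolyzes cAMP and is inhibited by cGMP, fell from 113 to 54.6 CPM (log2 fold change -1.05, edgeR adjusted p = 1.92e-05), and *Pde9a*, which is selective for cGMP, from 2.00 to 0.891 CPM (-1.16, edgeR adjusted p = 0.00665). *Prkg2*, a cGMP-dependent kinase, rose from 0.956 to 2.55 CPM (1.40, edgeR adjusted p = 0.0118), whereas *Prkg1*, the kinase at far higher level, fell by 0.30 on the log2 scale. *Gucy1a2*, another subunit of soluble guanylyl cyclase, fell by 0.51, and *Furin*, a protease of many peptide precursors, rose by 0.49.

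The Gq-coupled signaling genes, on which endothelin and angiotensin receptors both draw, showed no common direction. Of 25 listed 23 were tested, 8 rose and 6 fell, with a median log2 fold change of -0.0011. *Gnaq* and *Gna11*, the Gq-class alpha subunits, rose by 0.28 and 0.13. *Rgs4*, a regulator that shortens G protein signals, rose from 12.2 ± 1.42 CPM (SD, n = 3) to 49.1 ± 3.88 CPM (SD, n = 3), a log2 fold change of 2.01 (SE 0.09, edgeR adjusted p = 8.51e-06). *Rgs16*, of the same family, fell from 40.0 to 18.2 CPM (-1.14, edgeR adjusted p = 0.0043). *Arrb1*, an arrestin that uncouples receptors from G proteins, fell by 0.67.

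**Figure D5:**
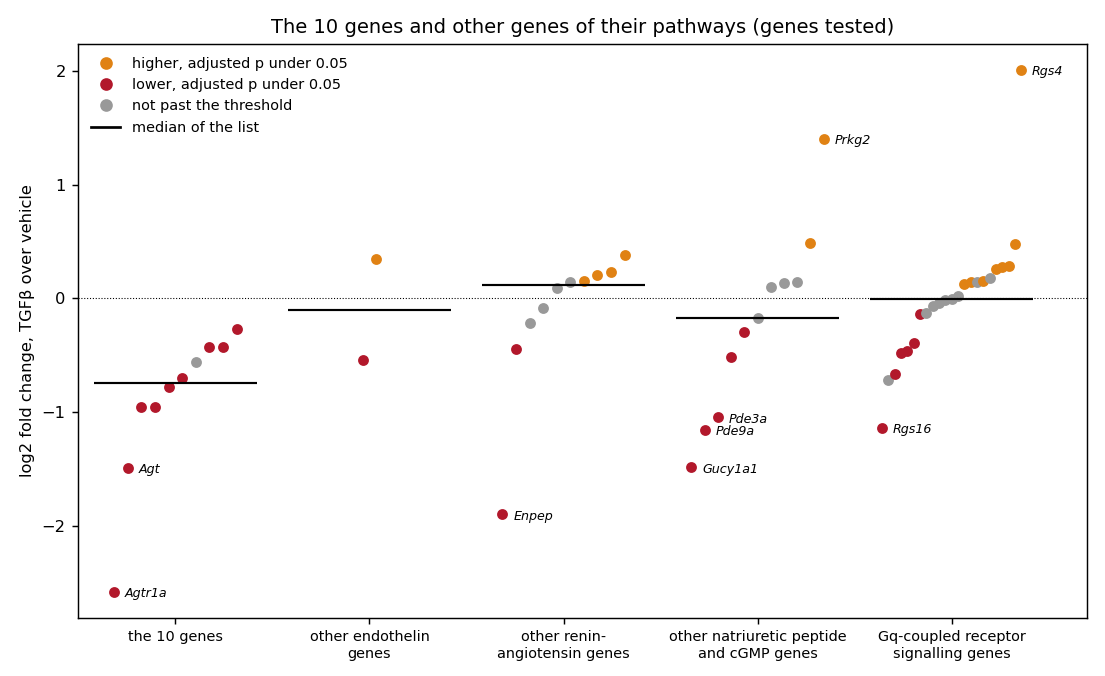
Change with TGFβ, as the log2 fold change against vehicle, for the 10 genes and for the tested genes of 4 lists of related components; orange and red points passed an adjusted p of 0.05 with higher and lower expression, grey points did not, and lines are list medians. The 10 genes have a median of -0.74, while the medians of the lists lie between -0.18 and 0.12. Genes and lists were chosen with earlier results of these data known.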

How the data were processed

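RNA was measured in 3 vehicle and 3 TGFβ libraries of mouse fibroblasts, 27851677 to 31072338 counts each. The authors aligned the reads to mm10 and deposited whole-number counts per gene without normalization, as well as fold changes, p-values and means from their DESeq2 comparison, which were not used. The aligner, the counter, the annotation and the use of strand are not given in the sources used here.

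From the counts, edgeR 4.0.16 (R 4.3.3) gave TMM factors, the low-count filter (filterByExpr, 14334 of 25140 genes kept) and the quasi-likelihood test of TGFβ against vehicle with no covariate and Benjamini-Hochberg adjustment over all genes kept (threshold 0.05). The SE is the log2 fold change over the square root of F. Steps were tested on simulated data. The biological coefficient of variation was 7.97%, and pairs of replicates differed by 7.95 to 27.1 in chi-square per gene, more than sampling noise, so each library counted as 1 replicate. Limits for 0 counts use 3 counts over the group. Gene identifiers matched GENCODE M21 in 25086 cases.

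The 10 genes and the lists were chosen with earlier results of these data known. Named from the pathway lists are called genes that average 1 CPM or more and have an absolute log2 fold change of 1 or more, and the endothelin, renin and natriuretic peptide genes *Edn2*, *Edn3*, *Ren1*, *Nppa*, *Nppb* and *Nppc*, and as most alike the 3 genes with the highest correlation to the member with the largest fall (no member rose). Other genes of the lists were named after their values were seen. Alternatives were DESeq2 1.42.0, limma-voom (limma 3.58.1), edgeR with DESeq2 size factors or upper quartile scaling, no filter, 1 CPM in 3 libraries, each library left out, stricter thresholds, a prior count of 1 in ratios and another transcript length. The fit without both libraries highest in summed endothelial markers was chosen after seeing the data. So was the fit with the mean log2 CPM of these markers as a covariate.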

Additional observations from a re-analysis of the deposited data

How the results depend on the processing

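The same 9 members were called with edgeR on DESeq2 size factors or upper quartile scaling, with DESeq2, with limma-voom, without a filter and with 1 CPM in 3 libraries. The number was 8 to 10 with each library left out and 7 at an adjusted p of 0.01, where *Npr1* and *Npr3* were lost. Only *Agt* and *Agtr1a*, 2 members, passed with a log2 fold change beyond 1. Over all genes, 5828 were called, 4489 to 5481 with a library left out, 3595 at an adjusted p of 0.01 and 971 with a log2 fold change beyond 1, of which 346 were higher and 625 lower. No log2 fold change of a member changed sign in any alternative. In all 12 fits with another scaling, tool, filter or library left out, 8 of the 10 members were called. The share of all genes called in all 12 was not counted, so this number has no background. *Npr1* was called in 8 of the 12 and *Ednra* in 1, with adjusted p from 0.00835 to 0.122 and from 0.0267 to 0.358. Why *Npr1* and *Ednra* moved across the threshold was not tested. With a library left out or a prior count of 1, the difference in the log2 ratio of *Ednrb* to *Ednra* lay between -0.48 and -0.32. No paired analysis was possible because the deposited count columns name the group and carry no replicate number. Counting error was largest for the lowest library of *Agtr1a*, 15.8% at 40 counts. The largest SE among the members was that of *Ednra* (0.26, against 0.19 for *Agtr1a*), although its lowest library held 156 counts.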
